A study of Mus musculus with 2 samples.

Results

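The genes described here encode receptors, lipases and lipid transfer proteins that handle plasma lipoproteins, measured in mouse liver RNA. The rule named 9 genes, namely Lrp1, Scarb1, Vldlr, Lcat, Lipc, Lpl, Pltp, Mttp and Abca1, and took the probe sets that the platform annotation assigns to 1 gene only. Of these genes, 8 had such a probe set, with 12 probe sets in all, out of 8251 genes and 10833 probe sets. Lipc, hepatic lipase, was dropped and is not analysed here. The study hybridised commercial mouse liver total RNA to 2 single-colour oligonucleotide arrays, called replicate 1 and replicate 2. Both form 1 group, liver, taken from the titles, with no treatment and no control. Both descriptions name the same catalogue item, no strain, age or sex was found in the labels, and nothing says that the arrays hold RNA of separate animals, so the spread between them may be technical.

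Lipoproteins carry cholesterol and triglyceride through plasma. The liver loads triglyceride onto apolipoprotein B to make very-low-density particles, lipases at the vessel wall remove the triglyceride, and receptors of the liver take up the remnants. High-density particles form when cells hand cholesterol to apolipoprotein A1, mature as that cholesterol is esterified, and deliver it back to the liver.

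The source field of both samples names spleen, so tissue markers were read first. Of 11 hepatocyte markers 11 were above background on both arrays, led by Alb and Cyp2e1, and their signals summed to 268154 on replicate 1 and 286292 on replicate 2. Of 15 lymphoid and spleen markers 0 were above background on both arrays, and they summed to 1416 and 1656. Their highest 2 genes were Cd4, above the threshold on replicate 2 alone (337.3 and 503.0), and Cd79a (450.3 and 333.4). Background means the 95th percentile of 92 genes typical of brain, testis, retina and striated muscle, which fell at 477.7 (replicate 1) and 502.3 (replicate 2). A gene is read from its brightest probe set, and 29.0% of all genes were above the threshold on both arrays. Signals are in arbitrary units and depend on probe sequence, so a signal is set against the threshold and the array as a whole and is no measure of transcript number. Percentiles below are positions among the 8251 genes of the array, averaged over both arrays.

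The RefSeq table of build GRCm38.p6 held promoter windows for 6 of the 8 genes, Lrp1, Vldlr, Lcat, Pltp, Mttp and Abca1, with a pair of start sites for Vldlr and 7 windows in all. Each window runs from 250 bases before the annotated start to 50 after it. The windows of 3 genes are shown because the brightest probe set of each read far above, moderately above or below the background, in that order. They are Lcat at chr8:105943353-105943652, Abca1 at chr4:53159846-53160145 and Mttp at chr3:138143369-138143668, all on the minus strand. Each is written 5′ to 3′ on the gene's strand, with capitals for the motif matches given below.
Lcat: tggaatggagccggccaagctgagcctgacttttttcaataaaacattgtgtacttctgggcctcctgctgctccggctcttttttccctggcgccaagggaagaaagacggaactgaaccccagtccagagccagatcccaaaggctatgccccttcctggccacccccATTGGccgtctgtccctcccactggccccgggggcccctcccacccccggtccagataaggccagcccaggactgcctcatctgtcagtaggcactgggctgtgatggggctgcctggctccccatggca
Abca1: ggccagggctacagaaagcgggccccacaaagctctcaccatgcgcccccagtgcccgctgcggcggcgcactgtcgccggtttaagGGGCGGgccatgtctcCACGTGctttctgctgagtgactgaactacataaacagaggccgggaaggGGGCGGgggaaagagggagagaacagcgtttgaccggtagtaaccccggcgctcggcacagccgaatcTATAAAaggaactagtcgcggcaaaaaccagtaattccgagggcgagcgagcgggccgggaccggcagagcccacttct
Mttp: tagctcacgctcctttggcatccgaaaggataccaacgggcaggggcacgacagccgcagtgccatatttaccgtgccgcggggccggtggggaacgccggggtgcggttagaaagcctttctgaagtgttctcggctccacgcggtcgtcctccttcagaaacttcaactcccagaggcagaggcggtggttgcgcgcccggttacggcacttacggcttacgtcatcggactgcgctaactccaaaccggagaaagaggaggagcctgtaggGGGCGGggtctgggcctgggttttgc

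A search for 8 motifs covered both strands of the 7 windows. The GC box, GGGCGG, was matched in Lrp1, in the downstream window of Vldlr, in Pltp, in Mttp and 2 times in Abca1, and 35.7% of the 32851 mouse promoter windows of this length hold it. The CCAAT box, CCAAT, was matched in Lcat, in Pltp and in the downstream window of Vldlr, against 37.4% of all windows. The TATA box, TATAAA, was matched in Abca1, 29 bases before the start, and in Pltp, 36 bases after it, against 13.6% of all windows. The E box, CACGTG, was matched in Abca1 alone of the 7 windows, against 7.15% of all windows. GTTAAT, 1 arm of the site of the liver factor HNF1, was matched in the upstream window of Vldlr alone, against 7.10% of all windows. The remaining 3 motifs had no match in the 7 windows: a direct repeat of TGNCCT with 1 spacer base, TGACCN followed by TNACCT with 4 spacer bases between them, and TCACNCCAC, a form of the sterol regulatory element. These were held by 0.381%, 0.0883% and 1.24% of all windows, in the same order. No matches overlapped. Base composition differed among the windows, with a GC content of 61.3% in Lcat, 62.7% in Abca1, 62.0% in Mttp, 67.7% in Lrp1 and 59.0% in Pltp. In Vldlr it was 43.0% in the upstream window and 68.0% in the downstream one. These matches describe letters in a window and no binding was measured.

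Of the 8 measured genes 5 were above background on both arrays: Lrp1, Scarb1, Lcat, Pltp and Abca1. The other 3, Vldlr, Lpl and Mttp, were below it on both arrays, and 0 of the 8 were split between the arrays. The share of all genes above background was 29.0%. The median percentile of the 8 was 82.8, where the median over all genes is 50 by construction. At the level of probe sets, 5 of the 12 were above the threshold on both arrays and 7 were below it on both, against 24.0% of all probe sets with 1 gene above it. The count describes these genes and is no test.

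**Figure D1:**
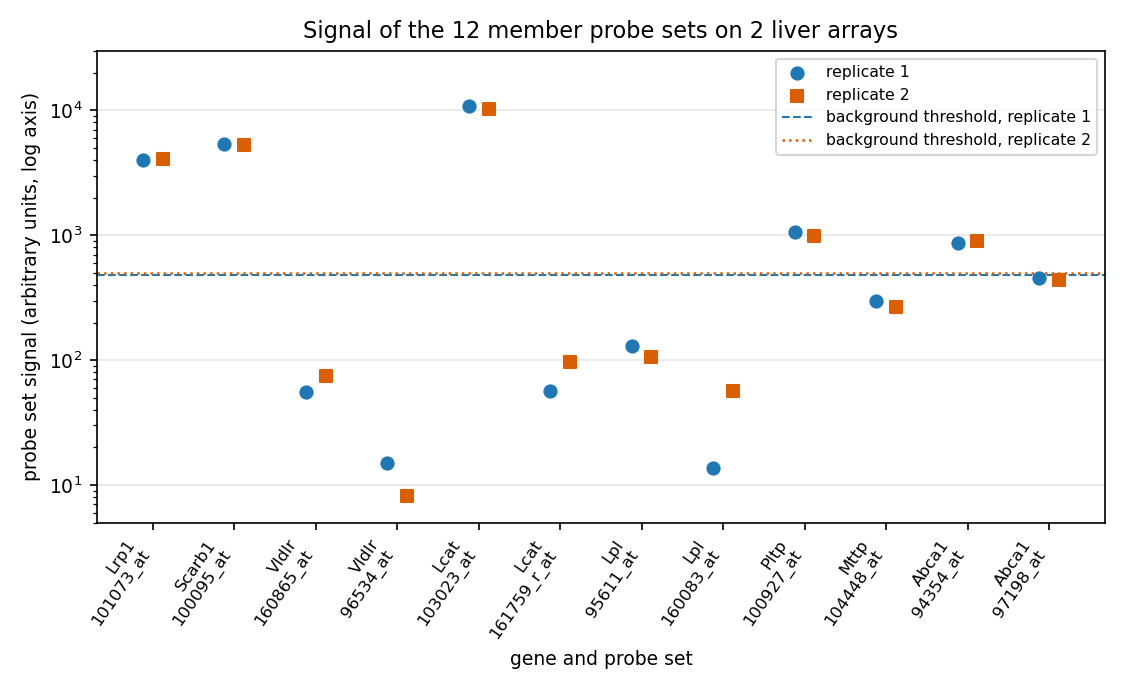
Signal of the 12 probe sets of the 8 genes, in arbitrary units on a log axis, with 1 point per array (circles, replicate 1; squares, replicate 2) and dashed and dotted lines for the background threshold of each array. Lcat gave 10758 and 10303 in 1 probe set and 56.5 and 96.0 in the other, and Vldlr, Lpl and Mttp lie below both lines.

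Among the receptors, Lrp1 and Scarb1 were well above background and Vldlr was not. Lrp1 is a large endocytic receptor that takes up remnant particles carrying apolipoprotein E, and its 1 probe set gave 3975 on replicate 1 and 4075 on replicate 2, a mean of 4025 ± 70.6 (SD, n = 2 arrays). That signal was 8.32 times the threshold of replicate 1 and 8.11 times that of replicate 2, and lay at percentile 95.5. Scarb1, the receptor known as SR-BI that takes cholesteryl ester from high-density particles without engulfing them, gave 5387 and 5281, a mean of 5334 ± 75.3 (SD, n = 2 arrays). It stood at percentile 96.7, and its signal was at least 10.5 times the threshold on each array. The arrays differed by a factor of 1.03 for Lrp1 and 1.02 for Scarb1.

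Vldlr binds triglyceride-rich particles and is best known from heart, muscle and fat. Its brighter probe set gave 55.5 on replicate 1 and 74.2 on replicate 2, and its other set 15.0 and 8.20. Both sets were below the threshold on both arrays, and the brighter one lay at percentile 23.6. Signals of this size carry little information on quantity, since probe sets of like signal (the same of 10 equal-sized signal bins as the brighter set) differed between arrays with an SD of 0.99 on the log2 scale. Vldlr is described as not above background rather than as absent.

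The enzymes of plasma lipoproteins were divided in the same way. Lcat, the liver-made acyltransferase that esterifies the cholesterol of high-density particles, gave 10758 on replicate 1 and 10303 on replicate 2 in one probe set, a mean of 10530 ± 321.7 (SD, n = 2 arrays). This set was 22.5 and 20.5 times the threshold and put the gene at percentile 98.5. The other probe set of Lcat, of suffix r, gave 56.5 and 96.0, below the threshold on both arrays. The 2 sets thus fell on opposite sides of the threshold. The r in a probe set name marks sets chosen under relaxed rules, and 12.2% of the 739 r sets with 1 gene were above background on both arrays, against 25.0% of the 8555 sets with no such letter.

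Disagreement between probe sets of 1 gene was common on these arrays. Of the 599 genes with exactly 2 probe sets and at least 1 above background, 79.3% had the other set not above it, as Lcat did. The size of the gap in Lcat was rare, however. Its sets differed 142.9-fold by mean log2 signal, against a median of 5.98-fold among the 599. A gap as large or larger was seen in 36 of them, 6.01%. Lcat is counted above background through its plain set. Its mean over both sets was also above the threshold set for such means, at percentile 85.2.

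Lpl, lipoprotein lipase, hydrolyses triglyceride at the vessel wall and is made mainly in fat and muscle, with low levels known for adult liver. Its brighter probe set gave 129.1 on replicate 1 and 106.5 on replicate 2, a mean of 117.8 ± 16.0 (SD, n = 2 arrays), at percentile 34.8. The other set gave 13.6 and 56.6. Neither set reached the threshold on either array, and the brighter one stood at 0.270 and 0.212 of it. Of 6 adipocyte markers 1 was above background on both arrays, Lep at 1160 and 854.4, whose other probe set gave 123.7 and 122.8, and the next highest was Fabp4 at 179.4 and 168.4. The 6 summed to 1587 on replicate 1 and 1268 on replicate 2. Adipoq, named after its value was seen, gave 130.8 and 120.7. In bulk RNA, fewer cells of a type and less RNA per cell cannot be told apart.

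The genes of lipid transfer, assembly and efflux gave moderate signals, with Mttp below the threshold. Pltp, the phospholipid transfer protein that remodels high-density particles, gave 1057 on replicate 1 and 989.1 on replicate 2, a mean of 1023 ± 48.1 (SD, n = 2 arrays), at percentile 83.9. Abca1, the pump that hands cellular cholesterol and phospholipid to apolipoprotein A1, gave 862.8 and 895.4 in its brighter probe set, a mean of 879.1 ± 23.1 (SD, n = 2 arrays), at percentile 81.6. The second set of Abca1 gave 451.4 and 438.3, which is 0.945 and 0.873 of the threshold. At the main threshold, the call of Abca1 thus rests on its brighter set. The second set was above the 90th percentile of the background genes, 309.9 on replicate 1 and 324.8 on replicate 2. With the threshold at the 99th percentile of the background genes, 1003 on replicate 1 and 915.7 on replicate 2, Abca1 was not above background while Pltp was.

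Mttp encodes the large subunit of the microsomal transfer protein, which loads lipid onto apolipoprotein B in hepatocytes and enterocytes. Its 1 probe set gave 297.0 on replicate 1 and 265.1 on replicate 2, a mean of 281.1 ± 22.6 (SD, n = 2 arrays), at percentile 55.9. The signal was 0.622 and 0.528 of the threshold, so Mttp was not above background on either array. It was also below the 90th percentile of the background genes, 309.9 and 324.8. A second reading of Mttp was not at hand, since no other probe set is assigned to this gene alone.

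Cell types other than hepatocytes also use some of these genes, among them macrophages for Lrp1, Pltp and Abca1. Of 10 Kupffer cell and macrophage markers 7 were above background on both arrays and Cd68 on replicate 1 alone (529.0 and 463.3). These markers summed to 12588 on replicate 1 and 12748 on replicate 2, led by C1qc and Clec4f. Of 8 endothelial markers 1 was above it, Eng, with the next highest, Kdr, at 341.5 and 269.9, and of 8 stellate cell and fibroblast markers 3, led by Dcn and Col1a2. Col1a2 was called through an r set (1493 and 1402), while its plain set gave 277.8 and 204.6. The share of all genes above background on both arrays, to set beside these counts, was 29.0%. The endothelial markers summed to 5223 and 5477, and the stellate and fibroblast markers to 9923 and 10022. Most of each sum came from 1 gene, Eng (3677 and 4026) and Dcn (6587 and 7026). The part of these cells in the signals of Lrp1, Pltp and Abca1 was not tested.

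The 2 arrays gave nearly the same reading for the genes above background. The log2 difference, replicate 1 minus replicate 2 after removing the median difference of 0.0058, was -0.04 for Lrp1, 0.02 for Scarb1, 0.06 for the plain set of Lcat, 0.09 for Pltp and -0.06 for the brighter set of Abca1. Each of these was at most 0.373 of the SD seen among probe sets in the same of 10 signal bins. Mttp differed by 0.16, and the second set of Abca1 by 0.04. Of the 12 probe sets 1 differed by more than 2-fold, the dimmer set of Lpl at -2.06, against 18.3% of all 12422 non-control probe sets and 2.09% of the brighter 50% of them. Both readings of that set, 13.6 and 56.6, were below background, and 43.6% of the probe sets in its signal bin differed by more than 2-fold. The other dim sets differed by -0.42 and 0.87 for Vldlr, by 0.27 for the brighter set of Lpl and by -0.77 for the r set of Lcat. With 1 array on each side there is no test of a difference between them.

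**Figure D2:**
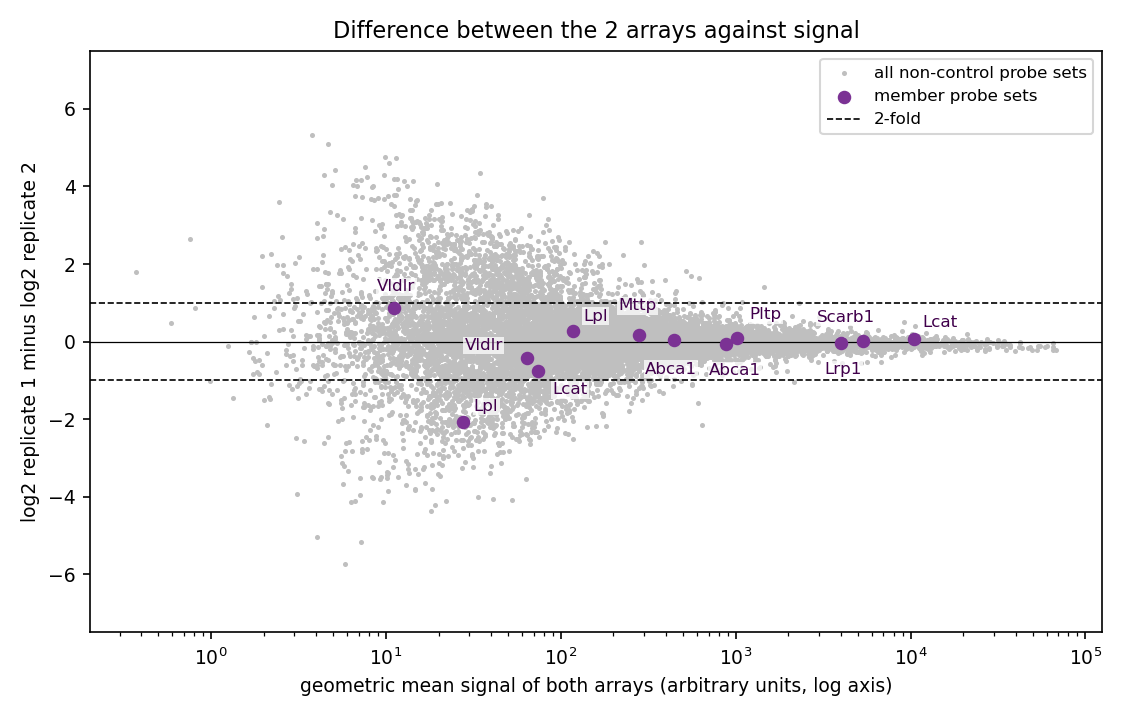
Log2 difference between the arrays (replicate 1 minus replicate 2, y axis) against the geometric mean signal in arbitrary units (log x axis), for all non-control probe sets (grey) and the 12 probe sets of the 8 genes (purple). Dashed lines mark 2-fold, and the dimmer set of Lpl, at -2.06, is the 1 labelled set outside them.

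The members were then set beside other genes of lipoprotein metabolism in 5 lists. Of 101 listed genes 73 were measured, and 48 of the 73, 65.8%, were above background on both arrays, with a median percentile of 83.5. Of all genes 29.0% were above it, the share to set beside each list below. Of these 48 genes 18 had several probe sets, and 14 of the 18 had at least 1 set that was not above background on both arrays. That is near the share over the whole array. Of all genes with exactly 2 probe sets and at least 1 above background, 79.3% had the other set not above it. Apolipoproteins, some of which are ligands of the receptors or cofactors of Lcat or Lpl, were above background in 11 of 12 cases. Apoe, a ligand of Lrp1, gave 62573 on replicate 1 and 72959 on replicate 2, and Apoa1, the main activator of Lcat and acceptor of Abca1, gave 60573 and 69535. Apoc1 and Apoh followed, Apom was the lowest above background (4866 and 5117), and Apod was below it (8.0 and 16.4). The other set of Apoe, of suffix i, gave 38.7 and 71.6, and that of Apom, of suffix r, 36.6 and 54.0.

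Other receptors and their adaptors were above background in 6 of 17 cases, 35.3%, with a median percentile of 48.5. Both values lay near those of all genes, 29.0% and 50. The 4 highest were Scarb2, a lysosomal membrane protein related to Scarb1 (1649 and 1757), Lrp10 (899.4 and 950.0), the heparan sulfate proteoglycan Sdc1 (702.8 and 686.4) and the Wnt co-receptor Lrp6 (593.0 and 708.8). Other probe sets were below the threshold for Lrp10 (61.8 and 64.4), Sdc1 (298.7 and 368.5) and Lrp6 (60.1 and 33.8). Stab1 passed the threshold on replicate 1 alone (599.0 and 495.7), and the lowest were Marco (23.6 and 18.8) and Sorl1 (6.8 and 5.7). The 2 remaining genes above background serve members directly and were named after their values were seen. Lrpap1, the chaperone that escorts Lrp1 through the secretory pathway, gave 625.1 and 618.4, and 78.5 and 38.9 in its other set. Pdzk1, the scaffold that holds Scarb1 protein at the hepatocyte surface, gave 544.5 and 613.6, and 279.9 and 303.7 in its other set.

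Other lipases and lipase regulators were above background in 9 of 15 cases, with a median percentile of 87.7. Highest were the carboxylesterases Ces1d (13550 and 14609) and Ces3a (14363 and 13612), Cel, bile salt-activated lipase (4192 and 3867), and Pnpla2, adipose triglyceride lipase (3002 and 3232). Ces1d was read from a set of suffix i, and its other set, of suffix f, gave 13472 and 13412. With no plain set, the call of Ces1d rests on suffixed sets. Dgat1 passed on replicate 2 alone (463.0 and 545.4), and the secreted phospholipases Pla2g7 (112.9 and 143.3) and Pla2g2a (152.2 and 27.2) were lowest. Lmf1, needed for the folding of Lpl, gave 1159 and 1100 in its 1 probe set. Angptl4, a secreted inhibitor of Lpl, gave 1759 and 1910 in a set of suffix s and 1106 and 1028 in one of suffix f. Its plain set gave 178.4 and 152.6 and its r set at most 37.2, both below the threshold, so its call rests on suffixed sets. Lmf1 and Angptl4 were named after their values were seen.

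Other transporters and assembly genes were above background in 12 of 15 cases, 80.0%, with a median percentile of 89.99. The fatty acid binding protein Fabp1 (30569 and 32300), the sterol carrier Scp2 (20082 and 19306), the peroxisomal Abcd3 (10270 and 10586) and Abcb4, the canalicular phospholipid flippase (4089 and 3984), were highest. Another set of Fabp1 gave 66.2 and 54.1, and another of Scp2 11090 and 12366. Abca2 passed on replicate 1 alone (715.2 and 491.4), and Pctp (217.6 and 212.5) and Abca4 (76.9 and 143.3) were lowest. P4hb, the protein disulfide isomerase that forms the small subunit of the microsomal transfer protein and also works without it, was named after its values were seen. It gave 1892 and 1859 in a probe set of suffix r and 208.2 and 133.7 in its plain set, so its call rests on the r set.

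Regulators of sterol and lipid genes were above background in 10 of 14 cases, 71.4%, with a median percentile of 83.7. The highest were Srebf1, which drives lipid synthesis genes (3286 and 3407), Nr1h3, the oxysterol receptor LXR alpha that induces Abca1 (1803 and 1955), and the nuclear receptors Hnf4a (1454 and 1602) and Nr1h4 (1355 and 1621). Ppard (50.8 and 17.2) and Insig1 (33.0 and 9.4) were lowest. The 28 listed genes without a probe set assigned to them alone were not analysed here.

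**Figure D3:**
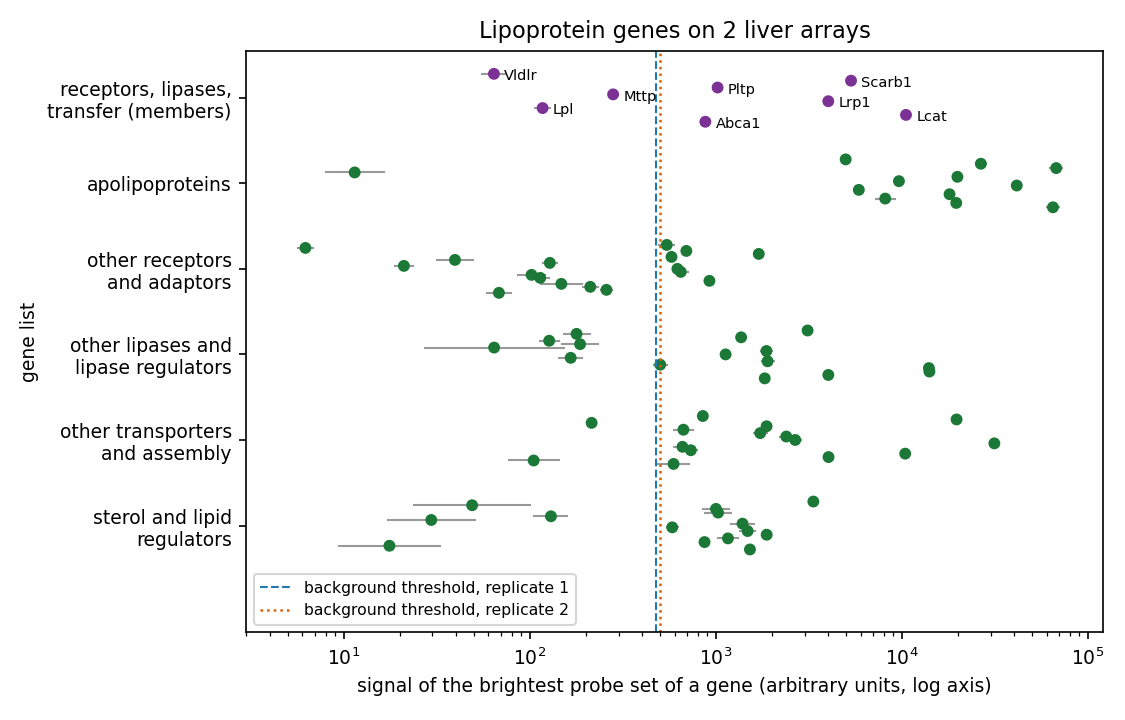
Signal of the brightest probe set of each gene (log x axis, arbitrary units) by gene list, with the 8 genes described here on top (purple, named) and 5 lists of other lipoprotein genes below (green). Points are geometric means of both arrays, grey lines join the 2 arrays and vertical lines mark the background thresholds. On both arrays 11 of 12 apolipoproteins and 6 of 17 other receptors and adaptors passed, against 29.0% of all genes.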

How the data were processed

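The deposited values are signal intensity on a linear scale, 1 per Affymetrix probe set and array. The 12488 values of each array have a mean of 500.5 on both arrays after trimming 2% at each end; for scaling, summary method and software, what the authors used is not given in the sources here. Background correction could not be repeated and can change low signals most. With 2 arrays, their number limits the precision of every value.

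By the platform annotation, 10833 of the 12422 non-control probe sets had 1 gene, 396 had several genes and 1193 had none. All 8 measured members matched a RefSeq table (GRCm38.p6) by gene identifier. Control probe sets (66) stayed out. The arrays were not copies, with 16 identical values.

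Members and gene lists were chosen with earlier results of these data known. Named genes are all members, the 4 highest and 2 lowest of each pathway list, those above the threshold on 1 array, and the 2 highest of each marker list; exceptions are stated. No test was possible with 1 group, and no p-value was computed. Genes of like pattern are not named, since 2 arrays of 1 group carry no pattern across conditions. Alternatives were the 90th and 99th percentile of background genes, averaging all probe sets of a gene, plain probe sets only, quantile normalization, each array alone, no median shift and log2(value + 32). The difference between arrays and its median shift were tested on simulated data, and the threshold and quantile normalization steps were checked for their arithmetic. The promoter search, list counts and probe set agreement were not tested in this way. Python 3.11.15, numpy 2.4.6, pandas 2.3.3 and matplotlib 3.10.9 were used.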

Additional observations from a re-analysis of the deposited data

How the results depend on the processing

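The count of 5 of 8 genes above background was the same in 6 of 7 alternatives and was 4 with the 99th percentile of the background genes, where Abca1 dropped out. The share of all genes above background moved with the threshold, from 29.0% to 15.9% at the 99th percentile, 38.2% at the 90th, 32.3% with all probe sets of a gene averaged and 36.5% for plain sets only, so the same count stands against different shares. Lrp1, Scarb1, Lcat and Pltp were above the threshold in 7 of 7 alternatives and Vldlr, Lpl and Mttp in 0 of 7. Leaving out replicate 1 or replicate 2 gave 5 genes each time, as it had to, since 0 of the 8 were split between the arrays. Quantile normalization keeps the order of signals within an array, so it could hardly move a call. These settings are therefore weak checks of the calls. The count of other pathway genes above background, 48 of 73, ran from 35 (99th percentile) to 51 (90th percentile), with 47 of 70 for plain probe sets only, and was 49 or 50 with 1 array left out. At the 99th percentile, with the count of the main setting in brackets, other receptors and adaptors gave 1 of 17 (6). Sterol and lipid regulators gave 6 of 14 (10), other transporters and assembly genes 8 of 15 (12), and the other 2 lists the same counts. Other receptors and adaptors also gave 4 of 17 with all probe sets of a gene averaged. They gave 7 of 17 at the 90th percentile or without replicate 2, and 7 of 16 for plain sets only. Averaging all probe sets of a gene moved the percentile of Lcat to 85.2 and that of Vldlr to 12.3. The count of probe sets over 2-fold between the arrays, 1 of 12, became 0 with log2(value + 32), which shrinks differences of low signals by construction. No paired analysis was possible because both arrays belong to 1 group. Low signals limit what can be said of Vldlr and Lpl, and a single probe set below the threshold limits what can be said of Mttp.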
